A study of Mus musculus with 2 samples.

Results

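Complement is an ancient part of innate immunity in which soluble proteins tag surfaces and call in phagocytes, and 8 of its genes were followed here in microglia and neighbouring cells of the embryonic mouse hypothalamus and thalamus. The genes were 3 chains of C1q (C1qa, C1qb, C1qc), the central component C3, the classical pathway component C4b, properdin (Cfp) and the receptors C3ar1 and C5ar1. They were taken by gene symbol, and all 8 had a row among the 31053 genes of each count table. A further list of 48 complement genes, grouped by role, gave 47 rows. C4a, the paralog of C4b, was on this list but gave no values here.

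C1q is built from the products of C1qa, C1qb and C1qc, and with the proteases C1r and C1s it starts the classical pathway, which runs through C4 and C3. In the brain microglia are a main source of C1q, and C1q with C3 is known for marking synapses and cell debris for uptake. C3a and C5a, fragments released when C3 and C5 are cleaved, act through C3ar1 and C5ar1, while properdin stabilises the convertase of the alternative pathway.

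Cells came from wild-type CD1 embryos at E15.5, the age in embryonic days, and were sorted as double positive for Cd11b and Cd45, a pair of surface markers of myeloid cells. The stressed library pooled 5 embryos of 1 dam that was put in the cold, at 4 °C, for 30 min a day over 5 days, E11.5 to E15.5. The control library pooled 10 embryos of 1 dam without this stress. Each condition was therefore 1 library, so no test between conditions was possible, and litter, library and stress cannot be told apart. Intervals are exact at 95% and cover counting error only.

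The stressed table held 1467 cells with 6582188 UMIs (unique molecular identifiers, each marking 1 captured RNA molecule), against 1156 cells with 2833015 UMIs in the control table. Filters on genes and mitochondrial UMIs kept 1407 stressed and 1068 control cells. Clusters were named from marker genes, and a gate then required more myeloid than neural marker UMIs in each microglia-like, border-associated-like and monocyte or granulocyte-like cell, and the reverse in each neural-like cell. Microglia-like cells numbered 1151 in the stressed and 695 in the control library, border-associated-like cells 27 in stressed and 78 in control, monocyte or granulocyte-like cells 25 in stressed and 32 in control, and neural-like cells 158 in stressed and 213 in control. A cluster led by haemoglobin and vascular genes, with 27 stressed and 45 control cells, stayed unnamed. All 14 microglial markers reached 10 CPM (counts of a gene per 1000000 UMIs of a class) in the microglia-like cells of both libraries. That is no check of the name, since these markers gave the class its name. All 14 also reached 10 CPM in stressed border-associated-like and control unnamed cells. Neural-like and unnamed cells were present despite the sort, and whether each cell carried the surface markers of the sort was not tested. Both libraries held 13 barcodes in common, 11 of them neural-like by their larger copy; values without them are given where they bear on a result. The stressed microglia-like cells had Xist at 1806 CPM and Y-linked genes at 0.193 CPM, against Xist at 537 CPM and Y-linked genes at 99.5 CPM in control cells, and the stressed and control pools thus also differed in sex-linked RNA.

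The chains of C1q lie side by side on chromosome 4 of GRCm38, all on the minus strand, within 18675 bases. C1qb (ENSMUSG00000036905) is at chr4:136880129-136886187, C1qc (ENSMUSG00000036896) at chr4:136889804-136893065 and C1qa (ENSMUSG00000036887) at chr4:136895917-136898803. Promoter windows of 250 bases before to 50 after the gene start were read from RefSeq (GRCm38.p6) for 6 of the 8 genes. They were searched on both strands for GAGGAA, whose reverse complement reads TTCCTC, the purine-rich core bound by ETS factors such as PU.1, a regulator of myeloid genes, with no other motif searched. The windows of C1qb, C1qc and Cfp held it, 3 of 6, against 28.3% of all 32851 windows. These 3 are shown, since C1qb and C1qc are neighbouring chains and Cfp differed from the chains in its cell classes. The stressed over control ratios of C1qb and C1qc, given further on, were unlike in unthinned microglia-like cells and nearer each other after thinning. Capitals mark the motif, and a match is a string of letters, not a shown binding site.
C1qb promoter (chr4:136886151-136886450, minus strand): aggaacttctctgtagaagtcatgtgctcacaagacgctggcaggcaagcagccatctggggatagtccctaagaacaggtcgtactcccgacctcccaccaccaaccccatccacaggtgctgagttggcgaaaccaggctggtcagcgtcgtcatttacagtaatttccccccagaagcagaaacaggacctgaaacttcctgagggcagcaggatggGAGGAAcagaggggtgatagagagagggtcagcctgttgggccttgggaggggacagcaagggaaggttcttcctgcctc
C1qc promoter (chr4:136892865-136893164, minus strand): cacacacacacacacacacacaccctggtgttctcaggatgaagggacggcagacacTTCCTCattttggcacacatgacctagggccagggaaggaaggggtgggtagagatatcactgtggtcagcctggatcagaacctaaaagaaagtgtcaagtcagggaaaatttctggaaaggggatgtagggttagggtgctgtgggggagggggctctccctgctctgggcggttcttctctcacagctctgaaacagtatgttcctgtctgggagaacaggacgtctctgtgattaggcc
Cfp promoter (chrX:20931506-20931805, minus strand): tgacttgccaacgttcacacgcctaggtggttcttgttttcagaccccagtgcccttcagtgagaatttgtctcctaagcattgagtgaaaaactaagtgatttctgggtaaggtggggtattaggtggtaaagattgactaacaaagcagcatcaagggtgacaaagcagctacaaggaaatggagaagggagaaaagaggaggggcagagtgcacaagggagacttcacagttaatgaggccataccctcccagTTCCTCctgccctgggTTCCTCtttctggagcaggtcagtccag
The motif stands before the gene start in both C1q windows, whereas in the Cfp window its copies lie at the 3′ end of the printed sequence, past the start.

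In microglia-like cells the C1q chains were by far the most abundant of the 8 genes, and the receptors came next. Levels of different genes are set side by side as UMIs, since each captured molecule gives 1 UMI at its 3′ end, whatever its length. Whether capture differed between genes was not tested. C1qa, which encodes the A chain, gave 15842 UMIs or 3055 CPM (3007 to 3102) in the stressed library, against 4657 UMIs or 2546 CPM (2474 to 2620) in control. C1qb, the B chain, stood at 2782 CPM (2737 to 2828) in stressed cells and at 2384 CPM (2314 to 2456) in control cells. C1qc, the C chain, had almost equal levels, 3043 CPM (2996 to 3091) in stressed and 3018 CPM (2939 to 3099) in control cells. In the stressed library C1qa and C1qc did not differ beyond their intervals and C1qb was lower than both, whereas in control C1qc stood above C1qa and C1qa above C1qb. The sum of the chains was 8879 CPM in stressed against 7948 CPM in control microglia-like cells.

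**Figure D1:**
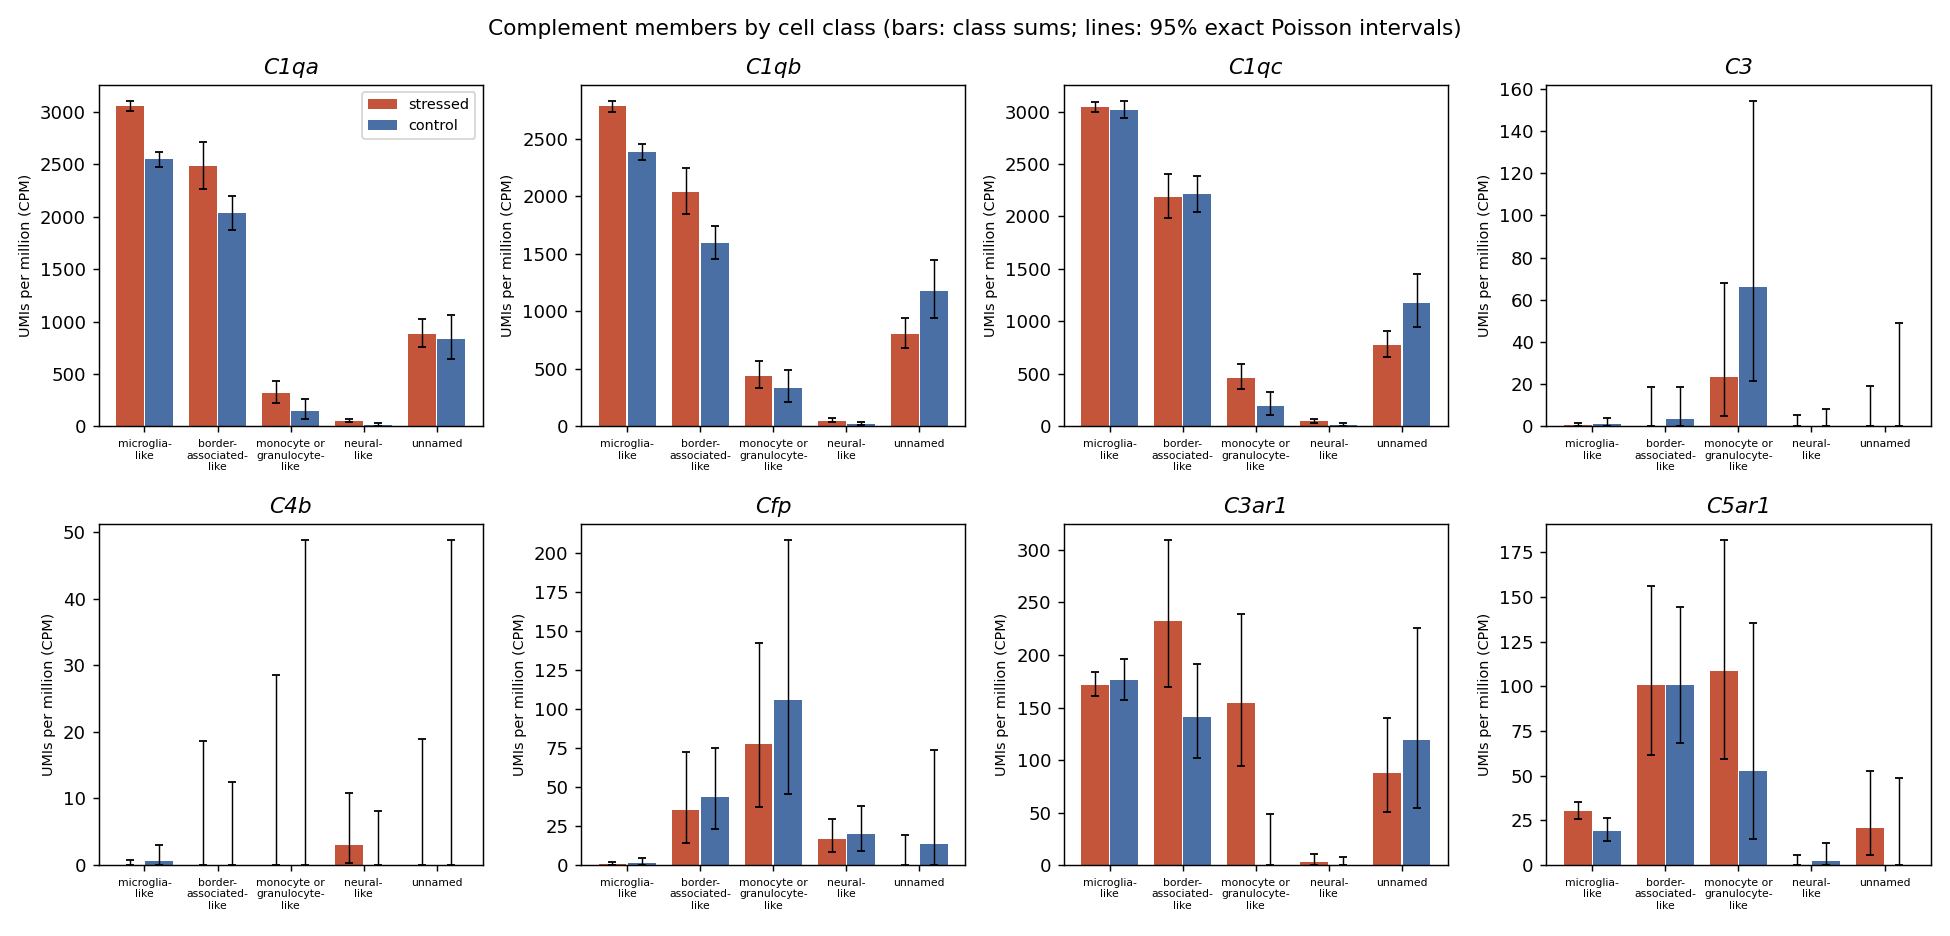
Level of each of the 8 genes (CPM, linear axes from 0) by cell class, stressed bars left of control bars, with 95% exact Poisson intervals that cover counting error only. The C1q chains peaked in microglia-like cells, C5ar1 in the border-associated-like and monocyte or granulocyte-like classes, and Cfp was lower in microglia-like than in neural-like cells.

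C1q was near universal in the microglia-like class. No C1q UMI was found in 3 of 1151 stressed and 2 of 695 control cells. All 3 chains were found together in 97.9% of stressed cells (median 3903 UMIs a cell) and 94.0% of control cells (median 2169 UMIs). With each cell thinned to 1100 UMIs, which left out 5 stressed and 51 control cells, these shares were 85.3% (83.1 to 87.3) in stressed and 80.1% (76.8 to 83.1) in control cells. In thinned neural-like cells, where C1q would not be looked for, the share was 1.37% in stressed cells and 0 of 171 in control cells, which allows a share with such UMIs of up to 1.75%, set by 3 counts. Cells varied widely in C1q: the 10th and 90th percentiles were 5017 and 14805 CPM in stressed cells, against 3894 and 14828 CPM in control cells.

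The 3 microglia-like clusters differed in C1q, and in each of them the summed level was higher in the stressed library. The cluster led by Lpcat2, Tmem119 (a microglial surface marker) and Itgam had the highest C1q, 10899 CPM in its 538 stressed cells and 10225 CPM in its 339 control cells. The cluster led by Ccl4, Csf1 and Spp1, genes of secreted signals, had 8269 CPM in 355 stressed and 6920 CPM in 230 control cells. The proliferating cluster, led by Mki67, had 7428 CPM in 258 stressed and 6536 CPM in 126 control cells. The stressed over control ratio of C1q was smallest in the Lpcat2 cluster, log2 0.09 (0.05 to 0.13), against 0.26 (0.21 to 0.30) in the Ccl4 cluster and 0.18 (0.12 to 0.25) in the Mki67 cluster.

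The 3 chains did not share 1 ratio between stressed and control microglia-like cells. The log2 ratio of stressed over control was 0.26 (0.22 to 0.31) for C1qa and 0.22 (0.17 to 0.27) for C1qb, but 0.01 (-0.03 to 0.06) for C1qc. C1qc therefore made up 34.3% (33.8 to 34.7) of C1q UMIs in stressed cells and 38.0% (37.2 to 38.8) in control cells. The ratios moved with depth: thinned to 1100 UMIs a cell they were 0.24 for C1qa, 0.13 for C1qb and 0.06 for C1qc. In the Lpcat2 cluster, unthinned, C1qb was at 0.09 (0.01 to 0.16) and C1qc at -0.05 (-0.12 to 0.02), with intervals that overlap. A lower C1qc share in the stressed library was seen in each microglia-like cluster: 33.3% in stressed and 36.8% in control cells of the Lpcat2 cluster, 35.3% in stressed and 38.7% in control cells of the Ccl4 cluster, and 34.3% in stressed and 39.2% in control cells of the Mki67 cluster. It was also seen in border-associated-like cells, with 32.6% (30.1 to 35.2) in stressed and 37.9% (35.6 to 40.2) in control cells. In the unnamed cluster the shares were 31.5% (27.4 to 35.9) in stressed and 36.9% (30.8 to 43.4) in control cells, with intervals that overlap. The monocyte or granulocyte-like class had the opposite order with few UMIs, 38.0% (30.4 to 46.0) in stressed and 29.4% (17.5 to 43.8) in control cells. Thinning every cell to 1100 UMIs brought the gap in the microglia-like class to -2.02 percentage points, stressed minus control, against -3.70 points unthinned. In the 1062 stressed and 230 control microglia-like cells with Xist and without Y-linked UMIs it was -3.56 points. The same order in classes that share a library is no separate replicate of the condition.

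**Figure D2:**
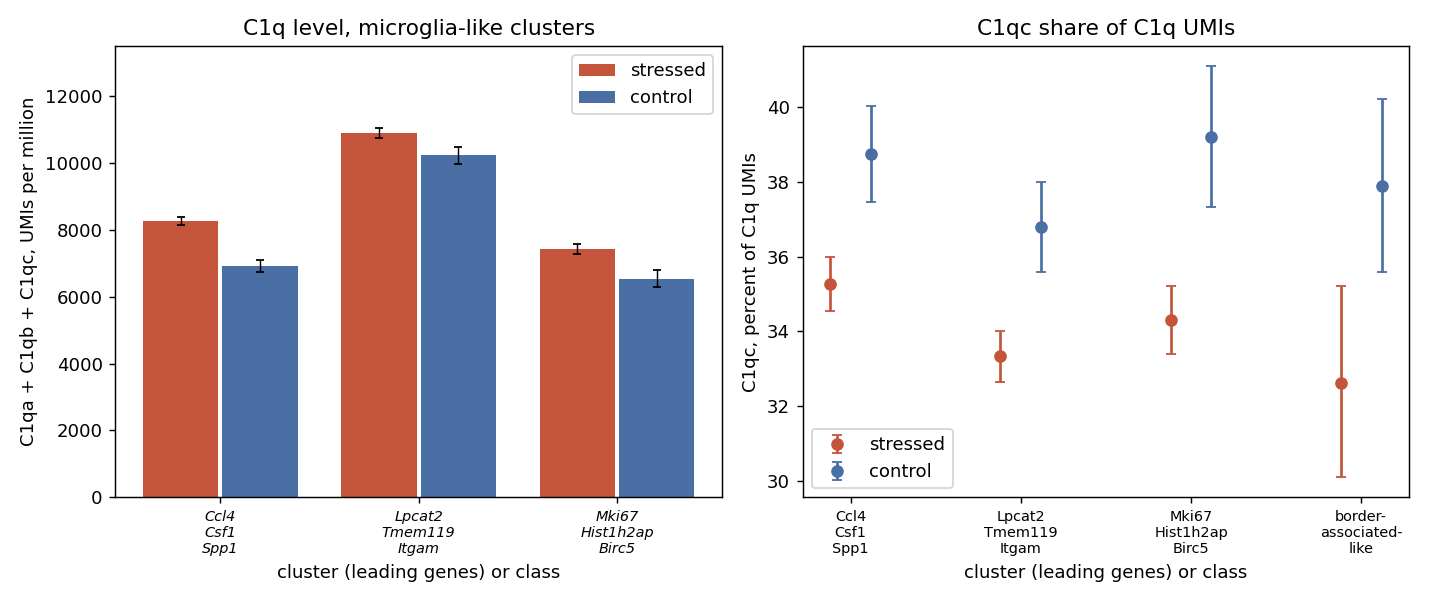
Left, summed C1q level in the 3 microglia-like clusters (CPM, bars with 95% exact Poisson intervals). Right, C1qc as a percent of C1q UMIs in those clusters and in border-associated-like cells (points with 95% exact binomial intervals, axis not from 0); stressed is left of control, and every stressed point lies below its control point.

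C5ar1, the receptor for C5a on chromosome 7 (ENSMUSG00000049130, chr7:16246743-16259540), was the member with the largest log2 ratio of stressed over control within microglia-like cells among those with at least 10 CPM. It gave 157 UMIs or 30.3 CPM (25.7 to 35.4) in stressed microglia-like cells, against 35 UMIs or 19.1 CPM (13.3 to 26.6) in control cells. The log2 ratio was 0.66 (0.13 to 1.23). By cluster, C5ar1 stood at 34.8 CPM (58 UMIs) in stressed and 16.2 CPM (10 UMIs) in control cells of the Lpcat2 cluster. In the Ccl4 cluster it stood at 37.8 CPM (78 UMIs) in stressed and 23.6 CPM (19 UMIs) in control cells. The log2 ratio was 1.10 (0.12 to 2.23) in the Lpcat2 cluster and 0.68 (-0.06 to 1.49) in the Ccl4 cluster, whose interval holds 0. In the Mki67 cluster C5ar1 stood at 14.4 CPM in stressed and 14.8 CPM in control cells, from 21 stressed and 6 control UMIs. The ratio over all microglia-like cells moved with the cells taken. It was 1.45 among cells with Xist and without Y-linked UMIs and 1.26 among cells low in cell cycle UMIs. At a finer cluster resolution it was 0.54, under the 1.5-fold line. At 1100 UMIs a cell, 3.14% (2.21 to 4.32) of stressed and 2.02% (1.08 to 3.43) of control cells had a C5ar1 UMI, against 0 of 146 stressed and 0 of 171 control neural-like cells. At 2000 UMIs a cell, which left out 130 stressed and 308 control cells, the microglia-like shares were 5.09% (3.83 to 6.63) in stressed and 4.39% (2.58 to 6.94) in control. Unthinned, they were 10.2% in stressed cells, with a median of 3903 UMIs, and 4.32% in control cells, with a median of 2169 UMIs.

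C3ar1, the receptor for C3a on chromosome 6 (ENSMUSG00000040552, chr6:122847138-122856161), was several times more abundant than C5ar1 in these cells. Its level was 172 CPM (161 to 183) in stressed and 176 CPM (157 to 196) in control microglia-like cells, a log2 ratio of -0.04 (-0.22 to 0.15) that took the other sign, 0.07, with edgeR's TMM factors. Within the class it was highest in the Ccl4 cluster, at 211 CPM in stressed and 218 CPM in control cells, and lowest in the Mki67 cluster, at 126 CPM in stressed and 111 CPM in control cells. Equal thinning gave a C3ar1 UMI in 16.8% of stressed and 16.5% of control cells; unthinned, the shares were 43.9% in stressed and 32.8% in control cells, with more UMIs a cell in the stressed library.

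The other components were almost absent from microglia-like cells. C3, the protein on which all complement pathways meet (ENSMUSG00000024164, chr17:57203970-57228136, minus strand, overlapping Mir6978), gave 3 UMIs among 5186416 in stressed cells and 2 among 1828968 in control cells. C4b (ENSMUSG00000073418, chr17:34728380-34743882) gave 0 UMIs in stressed cells, where 3 counts would be 0.578 CPM, and 1 UMI in control cells. Its counts are uncertain because C4a is a near-identical copy. Cfp gave 5 stressed UMIs, or 0.964 CPM (0.313 to 2.25), and 3 control UMIs, or 1.64 CPM (0.338 to 4.79). With so few UMIs no difference between the libraries was detectable for these genes. C4b had 2 further UMIs, both in stressed neural-like cells.

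Of the 8 members, 5 reached 10 CPM in microglia-like cells of either library. Among them C5ar1, 1 of the 5, was at least 1.5 times higher in the stressed library, as were 3.12% of the 7572 genes at that level, and 0 were at least 1.5 times lower, as were 7.25% of those genes. The median log2 ratio of the 5 was 0.22, against -0.08 over the 7572 genes. That median was the value of C1qb, and the C1q chains among the 5 are neighbouring genes of 1 protein, not separate measures. C3ar1 stood at -0.04 and C5ar1 at 0.66. Among the other complement genes 10 of 47 were measured, 0 were higher and 2 were lower by that rule, with a median log2 ratio of -0.08, and 14 had no UMI in any class. None of the 5 classical protease and initiation genes, the 2 alternative pathway genes or the 7 terminal pathway genes reached 10 CPM in microglia-like cells.

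The genes that were lower belonged to the lectin and receptor lists. Colec12, a scavenger receptor with a collectin domain, stood at 12.9 CPM in stressed and 26.8 CPM in control microglia-like cells (log2 -1.05, -1.61 to -0.49). Itgax, the alpha chain of complement receptor 4, stood at 35.5 CPM in stressed and 56.3 CPM in control cells (log2 -0.67, -1.02 to -0.30). TMM factors raised all log2 ratios by 0.11, which brought Itgax to -0.56, within 1.5 times, and left Colec12 at -0.94. Itgam, the alpha chain of complement receptor 3 and a marker of the sort, stood at 113 CPM in stressed and 128 CPM in control cells, and its partner Itgb2 at 36.4 CPM in stressed and 31.2 CPM in control cells. Proteins described as C1q receptors or binding partners were common too: Calr at 476 CPM in stressed and 586 CPM in control cells, Lrp1 at 250 CPM in stressed and 291 CPM in control cells, and C1qbp at 269 CPM in stressed and 259 CPM in control cells.

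**Figure D3:**
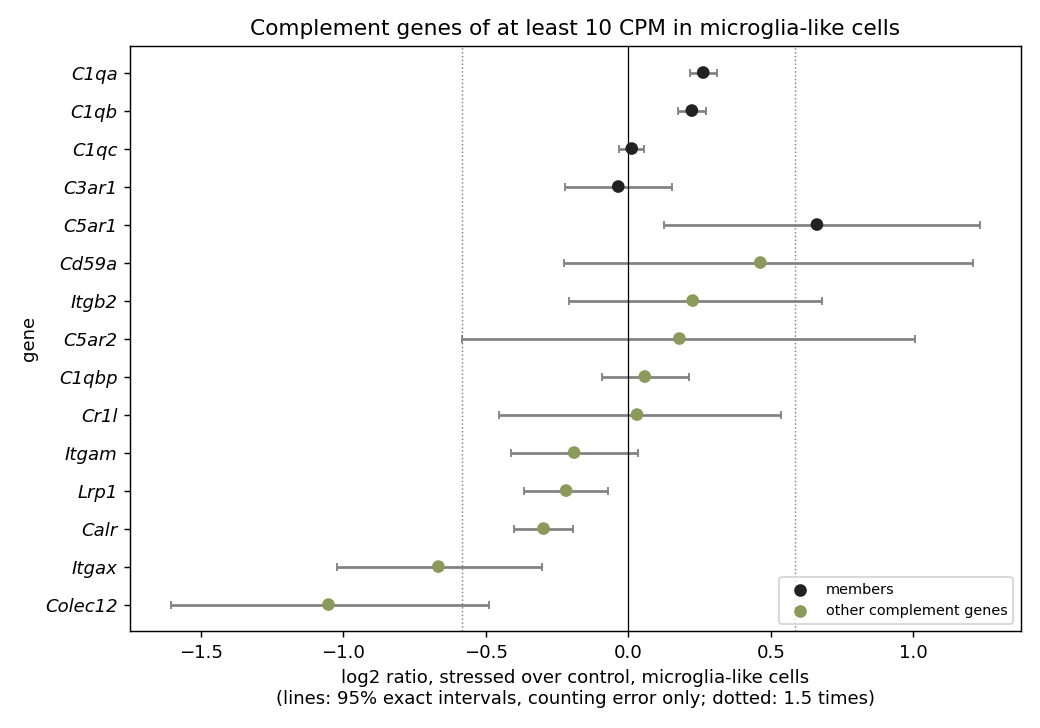
Log2 ratio of stressed over control in microglia-like cells for the 5 members (black) and 10 other complement genes (green) with at least 10 CPM, with 95% exact intervals for counting error and dotted lines at 1.5 times. C5ar1 is the member beyond the right dotted line, and Itgax and Colec12 lie beyond the left one.

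Border-associated-like cells, named from markers of the macrophages at the brain's borders such as Pf4, Lyve1 and Mrc1, shared the C1q chains with microglia at a lower level and were higher in C5ar1 and Cfp. C1qa stood at 2482 CPM (2267 to 2711) in stressed and 2032 CPM (1873 to 2201) in control cells, C1qb at 2038 CPM in stressed and 1591 CPM in control cells, and C1qc at 2189 CPM in stressed and 2210 CPM in control cells. The ratio of summed C1q to the microglia-like level of the same library was log2 -0.40 (-0.48 to -0.33) in stressed and -0.45 (-0.52 to -0.37) in control, but this rested on the clustering: at a finer resolution the stressed ratio was 0.0055 and the control ratio -0.21. C5ar1 stood at 101 CPM in border-associated-like cells of both libraries, from 20 stressed and 30 control UMIs, or 3.33 times (1.98 to 5.32) the microglia-like level in stressed and 5.27 times (3.13 to 8.84) in control. Cfp gave 7 stressed UMIs, or 35.3 CPM (14.2 to 72.7), and 13 control UMIs, or 43.7 CPM (23.3 to 74.8). These levels were 36.6 times (10.0 to 146) the microglia-like level in stressed and 26.7 times (7.33 to 146) that level in control. Of 6 measured members, these 2 were at least 1.5 times higher than in microglia-like cells of each library, as were 23.0% of 8157 genes in stressed and 18.7% of 8174 genes in control, and 0 were lower, as were 20.3% of genes in stressed and 27.6% in control.

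Between the libraries, 1 of the 6 measured members of border-associated-like cells was at least 1.5 times higher in stressed cells, as were 20.3% of 8352 genes in these small sums, and 0 were lower, as were 19.6%. It was C3ar1, at 232 CPM (170 to 309) from 46 UMIs in stressed and 141 CPM (102 to 191) from 42 UMIs in control cells. The marker sums of this class differed as well. The 14 microglial markers summed to 5301 CPM in stressed and 2806 CPM in control cells, and the 10 border-associated markers to 9185 CPM in stressed and 12812 CPM in control cells; their part in the result was not tested. The lectin pathway gene Fcna, a ficolin of macrophages, and Colec12 also had their highest levels in this class, Fcna at 177 CPM in stressed and 168 CPM in control cells and Colec12 at 116 CPM in stressed and 138 CPM in control cells. In microglia-like cells Fcna stood at 8.87 CPM in stressed and 8.20 CPM in control.

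The monocyte or granulocyte-like class, led by S100a8 and S100a9, had the highest C3 and Cfp levels of the classes, on few UMIs. C3 gave 3 UMIs in 25 stressed cells, or 23.2 CPM (4.79 to 67.8), and 5 UMIs in 32 control cells, or 66.1 CPM (21.4 to 154). Cfp gave 10 stressed UMIs, or 77.4 CPM (37.1 to 142), and 8 control UMIs, or 106 CPM (45.6 to 208), and these intervals overlapped with each other and with those of border-associated-like cells. C5ar1 stood at 108 CPM (59.2 to 182) in stressed and 52.8 CPM (14.4 to 135) in control cells. C3ar1 gave 20 UMIs in 7 stressed cells and 0 UMIs in the control cells, where 3 counts would be 39.6 CPM. C1q gave 158 UMIs in 8 of the 25 stressed cells, 123 of them in 3 cells, and 51 UMIs in 8 of the 32 control cells. The make-up of this class was unlike in the libraries: its 13 own markers summed to 7375 CPM in stressed and 28072 CPM in control cells, and the microglial markers to 2128 CPM in stressed and 832 CPM in control cells, and their part in these differences was not tested.

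Neural-like cells gave C1q UMIs at a low level. Their C1q was 154 CPM (126 to 187) from 103 UMIs in the stressed and 51.0 CPM (32.3 to 76.6) from 23 UMIs in the control library, or 1.73% (1.41 to 2.10) of the microglia-like level in stressed and 0.642% (0.407 to 0.964) in control. The same percentage for 7 microglial genes outside complement (Ctss, Cst3, Csf1r, Tyrobp, P2ry12, Cx3cr1 and Trem2) had a median of 2.29%, lowest 1.99%, in stressed and of 0.710%, lowest 0.179%, in control. Csf1r, P2ry12, Cx3cr1 and Trem2 were among the markers of the gate, which limits their level in neural-like cells, whereas C1q was not. The point values of all 7 lay above C1q in stressed and of 4 of 7 in control. In stressed the intervals of Ctss, P2ry12, Cx3cr1 and Trem2 held the C1q value of 1.73%. In control Ctss and Cx3cr1 rested on 1 neural-like UMI each. Cst3 was the highest, at 15.4% in stressed and 7.89% in control; the next gene reached 4.44% in stressed and 0.964% in control. C1qc made up 32.0% (23.2 to 42.0) of the C1q UMIs in stressed and 34.8% (16.4 to 57.3) in control neural-like cells, wide intervals that hold the microglia-like shares. By stressed neural-like cluster, C1qa made up 48.6% (31.4 to 66.0) of 35 C1q UMIs in the cluster led by Fabp7 and 27.9% (17.7 to 40.1) of 68 in the cluster led by Gnrh1, with intervals that overlap.

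The neural-like C1q of the stressed library was uneven among cells. Of 158 cells, 115 held 0 C1q UMIs, 30 held 1, 6 held 2 and 7 held 3 or more. In 3 of these 7 there were 25, 12 and 11 C1q UMIs, 48 of the 103, together with 68, 14 and 24 UMIs of myeloid markers. Of 213 control cells, 192 held 0, 19 held 1 and 2 held 2. Among neural-like cells without any myeloid marker UMI, 89 stressed and 165 control cells, C1q was 0.740% of the microglia-like level in stressed and 0.637% in control. The 18 stressed and 4 control cells of the neural-like clusters that the gate had set aside held 783 C1q UMIs, or 8333 CPM, in stressed and 53 C1q UMIs, or 5750 CPM, in control. Without the barcodes present in both libraries the percentages were 1.96% in stressed and 0.684% in control, and without the highest doublet scores 1.37% in stressed and 0.645% in control. At 1100 UMIs a cell, a C1qa UMI was found in 4.11% (1.52 to 8.73) of stressed and 2.34% (0.641 to 5.88) of control neural-like cells, against 93.4% of stressed and 91.8% of control microglia-like cells; unthinned, the neural-like shares were 13.9% in stressed and 3.29% in control.

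Cfp (ENSMUSG00000001128, chrX:20925454-20931555, minus strand) was the exception among the 8, since it was higher in neural-like than in microglia-like cells of both libraries. Its 11 stressed UMIs in 158 cells gave 16.4 CPM (8.21 to 29.4), and its 9 control UMIs in 213 cells gave 19.96 CPM (9.13 to 37.9). This was log2 4.09 above the microglia-like level in stressed and 3.61 above it in control, or 1706% (546 to 6262) of that level in stressed and 1217% (304 to 6990) in control, where each C1q chain stood under 2%. Of the 6 members measured in this comparison, Cfp alone was at least 1.5 times higher in neural-like cells, as were 47.7% of 9989 genes in stressed and 46.7% of 9954 genes in control. The other 5 were at least 1.5 times lower, as were 21.3% of genes in stressed and 23.9% in control.

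The Cfp UMIs of neural-like cells were spread thinly. They came from 10 stressed cells with at most 2 UMIs each and from 9 control cells with 1 each. No C1q UMI was found in 6 of the 10 stressed and 6 of the 9 control cells, against 115 of 158 stressed and 192 of 213 control neural-like cells in all. Of the cells with Cfp, 5 stressed and 6 control cells had no myeloid marker UMI. In cells with Xist and without Y-linked UMIs the level was 17.5 CPM (11 UMIs) in stressed and 26.3 CPM (5 UMIs) in control neural-like cells. Microglia-like cells of that kind had 1.01 CPM (5 UMIs) in stressed and 3.19 CPM (2 UMIs) in control, so the sign held there on few UMIs. No annotated gene overlaps Cfp, but it has near neighbours on the same strand: Elk1 lies 1839 bases upstream and Syn1, a synaptic vesicle gene, 4449 bases downstream. Syn1 had 12 stressed and 11 control UMIs in neural-like cells, or 17.9 CPM in stressed and 24.4 CPM in control, and 0 stressed and 2 control UMIs in microglia-like cells. Elk1 had 6 stressed and 4 control UMIs in neural-like cells, or 8.97 CPM in stressed and 8.87 CPM in control. In microglia-like cells Elk1 had 3 stressed and 4 control UMIs, or 0.578 CPM in stressed and 2.19 CPM in control. The part of neighbouring transcripts in the Cfp counts was not tested.

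**Figure D4:**
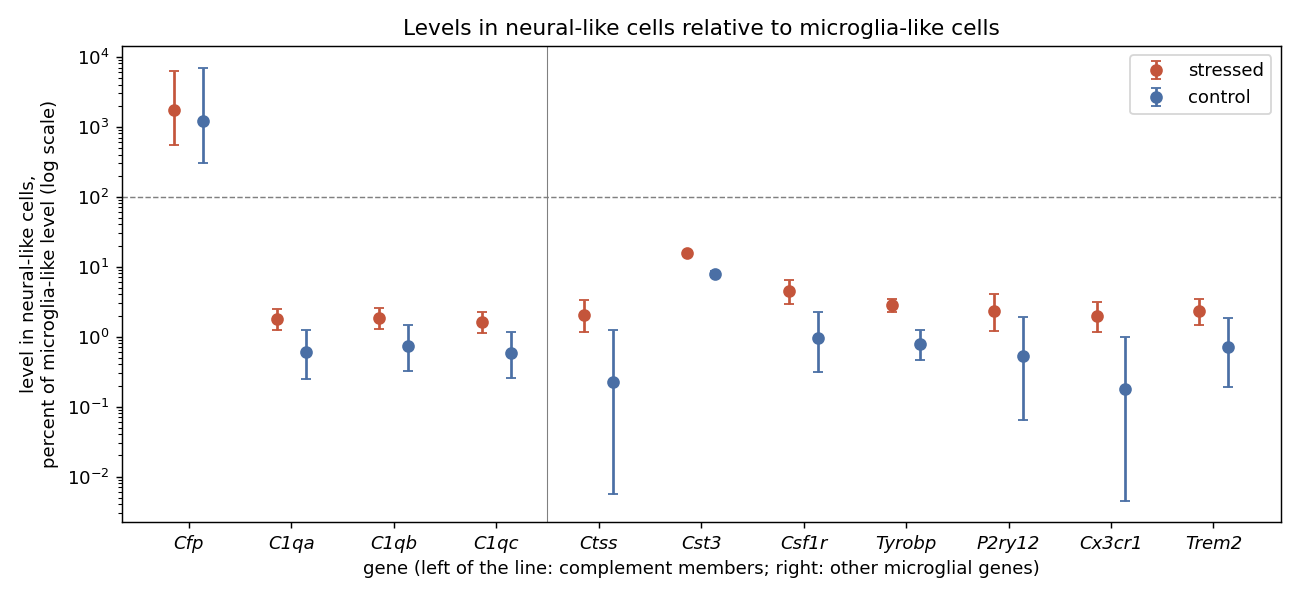
Level in neural-like cells as a percent of the microglia-like level of the same library (log axis, dashed line at 100%, 95% exact intervals for counting error), stressed left of control. C1qa, C1qb and C1qc lie among or below the 7 other microglial genes, and Cfp lies above 100% in both libraries. Csf1r, P2ry12, Cx3cr1 and Trem2 were also markers of the gate.

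Other complement genes had their highest levels outside the sorted myeloid classes. Clu, a soluble inhibitor of the terminal pathway, stood at 52.3 CPM in stressed and 93.2 CPM in control neural-like cells, with 1 UMI in the microglia-like cells of each library. Masp1, a protease of the lectin pathway, stood at 41.9 CPM in stressed and 24.4 CPM in control neural-like cells. Vtn, another soluble inhibitor, and Cd93, an endothelial and myeloid surface protein, were highest in the unnamed cluster, Vtn at 170 CPM in stressed and 278 CPM in control cells and Cd93 at 103 CPM in stressed and 119 CPM in control cells. That cluster also gave C1q at 2466 CPM in stressed and 3189 CPM in control cells, beside microglial markers that summed to 3053 CPM in stressed and 3877 CPM in control cells.

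Genes with profiles most like the members were sought among 5005 genes, by the root mean square difference of centred log2(CPM + 10) over 8 points, the 4 named classes of both libraries, which share library and depth. Nearest to summed C1q were Fcrls (0.56), Trem2 (0.61), Cx3cr1 (0.64), Rnase4 (0.64) and Lgmn (0.68). Fcrls, Trem2 and Cx3cr1 were among the markers that named and gated these classes, so their profiles were partly set in advance. Fcrls stood at 1293 CPM in stressed and 1134 CPM in control microglia-like cells, at 686 CPM in stressed and 474 CPM in control border-associated-like cells and at 22.4 CPM in stressed and 4.44 CPM in control neural-like cells. Nearest to C3ar1 were Ltc4s (0.59), Rab3il1 (0.67) and Adam15 (0.69), and nearest to C5ar1 were Hacd4 (0.22), Hpgd (0.32) and Cebpd (0.38). Like C5ar1, Hacd4 was higher in border-associated-like cells, at 217 CPM in stressed and 202 CPM in control, than in microglia-like cells. There it stood at 67.3 CPM in stressed and 68.9 CPM in control. In stressed monocyte or granulocyte-like cells Hacd4 stood at 193 CPM, below its border-associated-like level. C5ar1 stood there at 108 CPM, against 101 CPM in stressed border-associated-like cells.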

How the data were processed

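Sorted cells of 2 pools of embryos were profiled as 10x Genomics Chromium 3′ v3 libraries, 1 per condition. The authors deposited raw UMI counts per gene and barcode of called cells; per the submitters' processing notes, Cell Ranger 3.0.0, STAR, Seurat 2.4 and GRCm38.p5 (mm10) are listed with no role stated. The strand setting of the counting is not given in the sources used here.

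Cells passed with 500 or more genes and mitochondrial UMIs of 10% or less. One Leiden clustering of all cells (resolution 0.5, scanpy 1.11.5, igraph 0.11.9, Python 3.11.15) used 30 principal components and 15 neighbours of 2000 variable genes, from which complement, Xist, Tsix and Y genes were taken out. A cluster took the name of the marker list with the highest summed CPM, with at least 3 detected markers, but stayed unnamed where that list was vascular, fibroblast, erythroid or lymphoid (1 cluster, erythroid list highest), and the gate on marker UMIs followed. Doublets were kept, and Scrublet scores served for an alternative. Raw counts were summed by class and library and divided by the class total (CPM). Sums have exact Poisson, ratios exact conditional and shares Clopper-Pearson intervals at 95%; for calls, 3 counts stood in for a sum of 0. The ratio step was tested on simulated counts. Positions are from GENCODE M21. The 8 members and the gene lists were chosen with earlier results of these data known: named were all members, other complement genes of at least 50 CPM in a class, and Masp1, which was chosen after its values were seen. Some listed genes are not reported here.

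Alternatives were a stricter cell filter, doublet removal, finer clusters, no gate, the gate alone, per-cell means, thinning, edgeR 4.0.16 TMM and DESeq2 1.42.0 size factors, Xist cells, low-cycle cells, other limits on CPM and fold and, added after the data were seen, removal of shared barcodes, Xist cells for the neural-like values and the same settings for Cfp, C5ar1 and the C1qc share.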

Additional observations from a re-analysis of the deposited data

How the results depend on the processing

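Summed C1q was higher in stressed than in control microglia-like cells under all 11 alternatives, with log2 ratios between 0.10 and 0.33 against 0.16. It moved beyond its counting interval to 0.33 with a filter of 1000 genes and 5% mitochondrial UMIs, 0.10 as a mean over cells, 0.27 with TMM factors, 0.26 with DESeq2 size factors and 0.22 in cells with Xist and without Y-linked UMIs. Neural-like C1q of 1.73% of the microglia-like level in stressed became 1.37% without the highest doublet scores, 13.1% without the gate and 0.740% in cells without myeloid marker UMIs. The control value of 0.642% became 2.08% without the gate and 1.64% with the gate alone, under which stressed was 1.69%. Border-associated-like over microglia-like C1q in stressed, log2 -0.40, became 0.0055 with finer clusters and -0.55 after thinning. In control, -0.45 became -0.24 with the stricter filter, -0.21 with finer clusters and -0.54 as a mean over cells. The count of members higher in stressed microglia-like cells, 1, became 0 with finer clusters, with genes of at least 50 CPM and at 2 times; the count of members lower, 0, became 2 (C3 and Cfp) without a CPM minimum. On few UMIs, C3 turned from log2 -0.92 to 0.19 in low-cycle cells and Cfp from -0.77 to 0.17 after thinning. C1qb, at log2 0.22, ranged from 0.13 after thinning to 0.39 with the stricter filter. It moved beyond its counting interval in 6 of 11 alternatives, as did C1qc in 6 and C1qa in 4. C1qc turned to -0.03 as a mean over cells, and Cfp in neural-like over microglia-like cells fell to 1.84 in stressed and 0.75 in control with the gate alone, whose microglia-like side then held all myeloid cells. Beyond what each setting's own construction shows, the cause was not tested. Depth limits C3, C4b and Cfp, which have under 15 UMIs in most class sums. No paired analysis was possible because each condition had 1 library, and no replicate could be left out.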
